A study of Mus musculus with 6 samples.

Results

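The 4 genes of the Id family, Id1, Id2, Id3 and Id4, were examined for accessible chromatin in NMuMG cells treated with vehicle or with the cytokine TGFβ1. NMuMG is an epithelial line derived from mammary gland of the mouse. The genes were chosen as a family, and their regions by position. Every accessible region within 100 kb of the 5′ end of one of these genes, as annotated by GENCODE on the mouse build NCBIM37 (mm9), was taken, which gave 44 of the 39435 accessible regions found in any condition. Accessibility was measured by ATAC-seq, in which the transposase Tn5 inserts sequencing adapters into open DNA. All cells, vehicle included, were first kept for 6 h without serum and insulin. The control cells then received vehicle and were collected after 2 h, and the treated cells received 5 ng/ml of TGFβ1 and were collected after 2 h or 12 h. Each of these 3 conditions had 2 biological replicates. The vehicle is Tris-HCl with BSA in the sample labels and HCl with BSA in the treatment protocol. No vehicle at 12 h was used here, so that at 12 h the effect of TGFβ and that of a longer time without serum cannot be told apart. The authors deposited 1 list of peaks per condition, holding the peaks reproducible between both replicates. The lists carry no value for a single replicate and no read counts, and the library read totals that the study states were not used here, so the reads behind each peak are not given. No spread between replicates could be computed from the lists and no test between conditions was run.

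A region below is a stretch of peaks of at least 150 bp, joined where the gap between them was under 1000 bp. The width of a region includes the gaps joined within it. The regions of the 3 lists were joined in the same way to give the union. Regions listed after TGFβ without any overlap with the vehicle list are called gained. The word refers to the lists only, because accessible DNA whose signal did not reach the cutoff of the peak caller is not listed. Positions are counted in bp from the 5′ end of the gene, negative upstream and positive downstream in the direction of transcription. Of the markers that define epithelial cells, the 5′ ends of Krt8 and Krt18 lay inside a region in all 3 lists, that of Cdh1 in both TGFβ lists and that of Cldn4 at 12 h alone, while those of Epcam, Krt19, Esrp1 and Grhl2 lay in a region of no list. The 5′ ends of 12 markers of blood, endothelial and neuronal cells lay in a region of no list.

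Id proteins are helix-loop-helix proteins without a DNA-binding domain of their own. They pair with E proteins such as the product of Tcf3 and keep them off DNA, which holds back differentiation. In many cells the Id genes are direct targets of BMP signals, through SMAD1 and SMAD5 with SMAD4 on GC-rich SMAD sites, and in epithelial cells TGFβ is known to lower Id levels after a first response.

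A described BMP response element joins a GC-rich SMAD site to a second SMAD site, as GGCGCC followed after 5 bases by GTCT. It was found in the accessible regions of 3 of the 4 Id loci, at 4 sites, all within 5 kb of a 5′ end. They are shown because they recur near 3 members of the family in regions of different list patterns, with both SMAD sites in capitals and the bases between them in lower case:

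Id1, 3220 to 3234 bp from the 5′ end, chr2:152565207-152565221, plus strand: GGCGCCtggctGTCT
Id2, -2776 to -2762 bp from the 5′ end, chr12:25783719-25783733, minus strand: GGCGCCagagaGTCT
Id3, -2957 to -2943 bp from the 5′ end, chr4:135696455-135696469, plus strand: GGCGCCaggctGTCT
Id3, 4484 to 4498 bp from the 5′ end, chr4:135703896-135703910, plus strand: GGCGCCcggatGTCT

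Each of the 4 sites read in the direction in which its gene is transcribed. The site of Id2 lay in a region of all 3 lists, the upstream site of Id3 in a region of both TGFβ lists without vehicle, and the site of Id1 and the downstream site of Id3 in regions of the 2 h list alone. The full letters were present in 4 of the 44 regions near the Id genes (9.09%), against 55 of the 39435 union regions (0.139%). Among regions more than 1 kb from any annotated transcript start, 4 of 33 near the Id genes held the element (12.1%) against 10 of 27986 in all (0.0357%), so that the Id loci supplied 4 of these 10 regions. The 6 others had as their nearest protein-coding 5′ ends those of Fos, Ttc7, Fam160b1, Ttll7, Fam109a and Usp12. This element was searched for after the sequences had been seen, so these shares are a description. The 4 regions were also rich in G and C, with 59.7% at Id1, 68.4% at Id2, and 61.8% and 74.6% at Id3, against a median of 47.4% over all regions away from transcript starts, and the part of base composition in the matches was not tested.

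The sequences around the 4 sites follow, each the middle of the interval common to the lists that hold the region, on the plus strand of NCBIM37. Capitals mark GGCGCC and, where the element is complete, its GTCT, which reads AGAC at Id2 because that gene lies on the minus strand:

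Id1, 2 h alone, chr2:152565158-152565457: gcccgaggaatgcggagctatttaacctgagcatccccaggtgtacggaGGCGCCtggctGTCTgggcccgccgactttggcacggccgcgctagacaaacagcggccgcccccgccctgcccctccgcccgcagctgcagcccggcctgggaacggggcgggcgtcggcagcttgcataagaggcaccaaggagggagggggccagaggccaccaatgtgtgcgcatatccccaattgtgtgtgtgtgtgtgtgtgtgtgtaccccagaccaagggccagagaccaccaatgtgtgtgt
Id2, all 3 lists, chr12:25783529-25783828: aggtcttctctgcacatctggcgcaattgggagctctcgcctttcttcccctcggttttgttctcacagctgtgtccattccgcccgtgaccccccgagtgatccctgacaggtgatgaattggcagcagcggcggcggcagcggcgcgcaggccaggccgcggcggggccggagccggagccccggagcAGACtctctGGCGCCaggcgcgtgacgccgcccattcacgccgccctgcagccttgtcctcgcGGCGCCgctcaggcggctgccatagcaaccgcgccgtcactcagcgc
Id3, both TGFβ lists without vehicle, chr4:135696256-135696548: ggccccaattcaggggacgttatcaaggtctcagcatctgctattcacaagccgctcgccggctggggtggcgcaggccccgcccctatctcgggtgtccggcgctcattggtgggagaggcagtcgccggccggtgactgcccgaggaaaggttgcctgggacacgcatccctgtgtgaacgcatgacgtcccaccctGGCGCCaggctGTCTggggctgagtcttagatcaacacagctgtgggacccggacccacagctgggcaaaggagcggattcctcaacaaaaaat
Id3, 2 h alone, chr4:135703671-135703970: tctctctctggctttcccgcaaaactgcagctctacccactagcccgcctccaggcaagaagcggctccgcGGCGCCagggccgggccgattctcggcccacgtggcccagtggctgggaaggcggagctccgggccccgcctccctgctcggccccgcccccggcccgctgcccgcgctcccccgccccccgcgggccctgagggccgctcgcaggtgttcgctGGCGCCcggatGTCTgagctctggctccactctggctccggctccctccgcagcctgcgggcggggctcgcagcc

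The stretches from Id2 and from the downstream region of Id3 each held another GGCGCC besides that of the element. None of the 4 regions had an AP-1 site in its central 500 bp.

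Within 100 kb of the 4 genes, the vehicle list held 19 regions, the 2 h list 40 and the 12 h list 35. The whole lists held 16765, 32548 and 33079 regions. Both TGFβ lists thus held more regions than vehicle near the Id genes and in all, while from 2 h to 12 h the number fell at each of the 4 genes and rose slightly over the whole lists. Id1 had 7 vehicle regions, 13 after 2 h and 12 after 12 h. Id2 had 6, 9 and 7, in the same order. Id3 had 3, 13 and 12. Id4 had 3, 5 and 4. The windows of Id2 and Id4 held no other protein-coding 5′ end. The median protein-coding gene, of 22350, had 2, 4 and 4 regions, with upper quartiles of 5, 7 and 7. Id1 was above the upper quartile in all 3 lists, Id2 in vehicle and at 2 h, and Id3 in both TGFβ lists and not in vehicle. Id4 was below it in all 3.

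**Figure D1:**
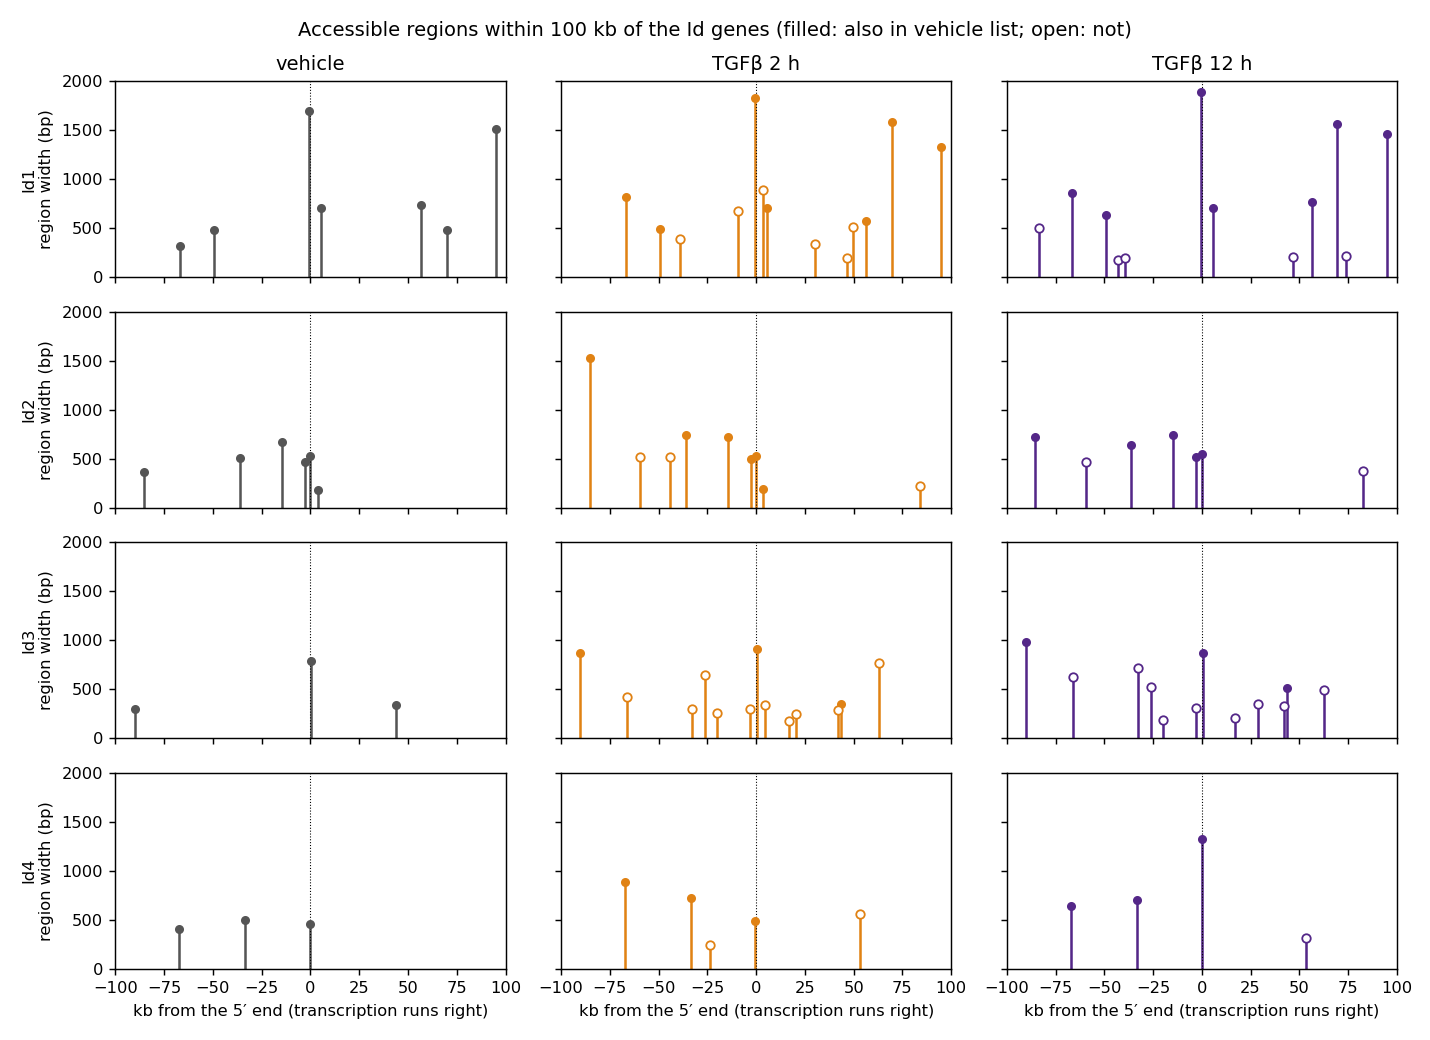
Accessible regions along the 4 Id loci, with the distance of each region's middle from the 5′ end in kb on the x axis and its width in bp on the y axis, one row per gene and one column per list. Filled points are regions whose union region is in the vehicle list and open points those without vehicle, of which Id3 shows the most, 10 at 2 h and 9 at 12 h.

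The sequence covered by regions, joined gaps included, was also larger in both TGFβ lists than in vehicle at each gene. It rose at Id3 from 1419 bp in vehicle to 5873 bp at 2 h and 6114 bp at 12 h. At Id1 it was 5917, 10322 and 9150 bp, and at Id2 2708, 5454 and 3999 bp. Id4 covered 1363, 2897 and 2976 bp. From 2 h to 12 h the covered sequence fell at Id1 and Id2 and rose slightly at Id3 and Id4, although the number of regions fell at all 4.

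Sorted by list, 18 of the 44 union regions were in all 3 lists (40.9%, 95% Wilson interval 27.7 to 55.6), against 38.4% of all union regions. Both TGFβ lists without vehicle held 13 (29.5%, 18.2 to 44.2), against 28.5%. The 2 h list alone held 8 (18.2%, 9.51 to 32.0), against 12.9%, and the 12 h list alone 4 (9.09%, 3.59 to 21.2), against 16.3%. One region, near Id2, was in the vehicle and 2 h lists and missing at 12 h (2.27%), against 2.25% of all union regions. These intervals cover counting error only, and each holds the share of the whole series, so that the sum over the 4 loci was close to the background. No region near an Id gene was in the vehicle list alone or in the vehicle and 12 h lists (0 of 44 for each, 0 to 8.03). Few regions of the whole series were, and these counts depended on list length. With each list shortened to its 18337 widest peaks, 3 of 28 were in vehicle alone, against 12.8% of all union regions. In vehicle and 12 h there were then 3 of 28, against 3.81%. With peaks of at least the median width kept, both stayed at 0 of 23, against 1.15% and 0.899%.

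Counted within a list, 21 of the 40 regions listed at 2 h were gained (52.5%, 37.5 to 67.1), against 50.7% of all 2 h regions, and 17 of the 35 at 12 h (48.6%, 33.0 to 64.4), against 53.9%. Of the 21 gained at 2 h, 12 overlapped a region of the 12 h list (57.1%), against 68.2% of all regions gained at 2 h. The 4 genes were unlike in this count. At Id3, 8 of the 10 regions gained at 2 h were in the 12 h list too, while at Id1 it was 2 of 6, at Id2 1 of 3 and at Id4 1 of 2. The difference between the genes was not tested.

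**Figure D2:**
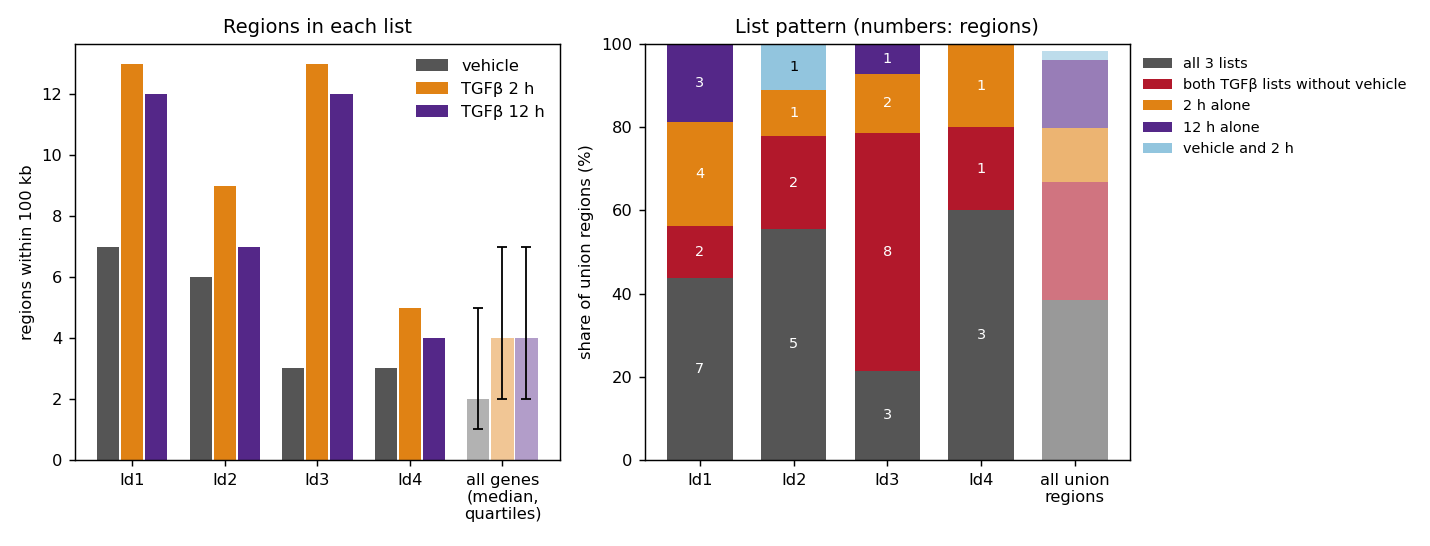
Left, the number of regions within 100 kb of each Id gene in each list, beside the median and quartiles (bars and lines) of all 22350 protein-coding genes. Right, the share of union regions by the lists that hold them, in percent, with the number of regions printed in each block, where Id3 has 8 regions in both TGFβ lists without vehicle and 3 in all 3 lists, and where the bar of all union regions leaves out the few in the vehicle list alone or in vehicle and 12 h.

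The regions gained in both TGFβ lists were narrow. Their widths at 2 h ran from 177 to 763 bp with a median of 302, against a median of 463 over all regions of that pattern, and at 12 h from 183 to 721 bp with a median of 331, against 513. When each list was shortened to its 18337 widest peaks, the number of at least 150 bp in the vehicle list, the 4 loci held 0 such regions of 28 in the union, against 12.6% of 24699 union regions in all. This shortening drops the narrowest peaks of the TGFβ lists first, so narrow regions such as these 13 are lost before others. The loss therefore cannot tell list length from width. When peaks of at least the median width of each list were kept, 6 of 23 union regions were gained in both TGFβ lists, against 28.1% of 21462. With lists of equal length the 4 loci held 19 vehicle regions, 20 after 2 h and 17 after 12 h. The whole lists then held 16765, 17881 and 17955 regions, since equal length removes most of the difference in number by construction.

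Id3, which keeps progenitor cells from differentiating in several lineages, had 3 of its 14 union regions in all 3 lists, the lowest share of the 4 genes. The region at its 5′ end began 98 bp into the gene in vehicle and ended at 885 bp, a width of 788 bp. At 2 h it ran from -22 to 885 bp (908 bp) and at 12 h from -38 to 833 bp (872 bp). The upstream edge had thus moved out by 120 bp at 2 h and 136 bp at 12 h, over the annotated 5′ end. The nearest gained region was the one with the response element printed above, from -3171 to -2855 bp, which was 302 bp wide at 2 h and 308 bp at 12 h. A 334 bp region of the 2 h list alone lay from 4242 to 4575 bp, and it carried the second element. Further upstream, regions gained in both TGFβ lists followed each other at -20005 to -19744 bp, -26576 to -25928 bp, -33030 to -32310 bp and -66440 to -65811 bp. Their widths were 262 and 183 bp, 649 and 527 bp, 296 and 721 bp, and 425 and 628 bp at 2 h and 12 h. Upstream of Id3 5 of 6 regions were thus gained in both TGFβ lists, and the sixth, at the 5′ end of the ribosomal protein gene Rpl11 90069 bp away, was in all 3. Upstream of Id1 and of Id2 it was 1 of 6 and upstream of Id4 0 of 3, against 28.5% of all union regions. Downstream of Id3, 3 more were gained in both lists, at 16714 bp, at 41878 bp in an intron of the cell cycle gene E2f2, and at 62498 bp over the 5′ end of Asap3, an Arf GTPase-activating protein. Asap3 was the one neighbour of an Id gene whose 5′ end lay in a region of both TGFβ lists and of no vehicle region. The widest region at 12 h was the one at Rpl11, 980 bp, against 294 bp in vehicle.

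Id1, the Id gene most used as a readout of BMP signals, had a broad region at its 5′ end in all 3 lists, with a width of 1693 bp under vehicle, 1832 bp after 2 h and 1891 bp after 12 h. In each list it joined 2 peaks, one about the 5′ end and one further upstream. The upstream peak hardly differed, from -1379 to -935 bp in vehicle, -1431 to -914 bp at 2 h and -1395 to -913 bp at 12 h. In all 3 lists it held a GGCGCC at -1099 to -1094 bp and a cAMP response element TGACGTCA at -1060 to -1053 bp. Both lay outside the central 500 bp in which motifs were counted. The peak about the 5′ end shifted downstream, from -397 to 313 bp in vehicle to -204 to 400 bp at 2 h and -202 to 495 bp at 12 h. An AP-1 site at -367 to -361 bp lay inside this peak in vehicle and outside it in both TGFβ lists. Within 10 kb there were 3 more regions. One at 5133 bp was in all 3 lists with 709, 703 and 702 bp, the most constant width at the locus. The others were in the 2 h list alone, a 678 bp region from -9532 to -8855 bp with 2 AP-1 sites and an 889 bp region from 2877 to 3765 bp with the response element. The gained regions nearest to Id1 were thus listed at 2 h and not at 12 h. The first region gained in both TGFβ lists was 39009 bp upstream in an intron of H13, a signal peptide peptidase, and its width was 384 bp after 2 h and 192 bp after 12 h. Of the 16 regions in the Id1 window, 12 were nearer to the 5′ end of another protein-coding gene, H13, Mcts2, Cox4i2 or Bcl2l1, so their assignment to Id1 rests on distance alone.

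**Figure D3:**
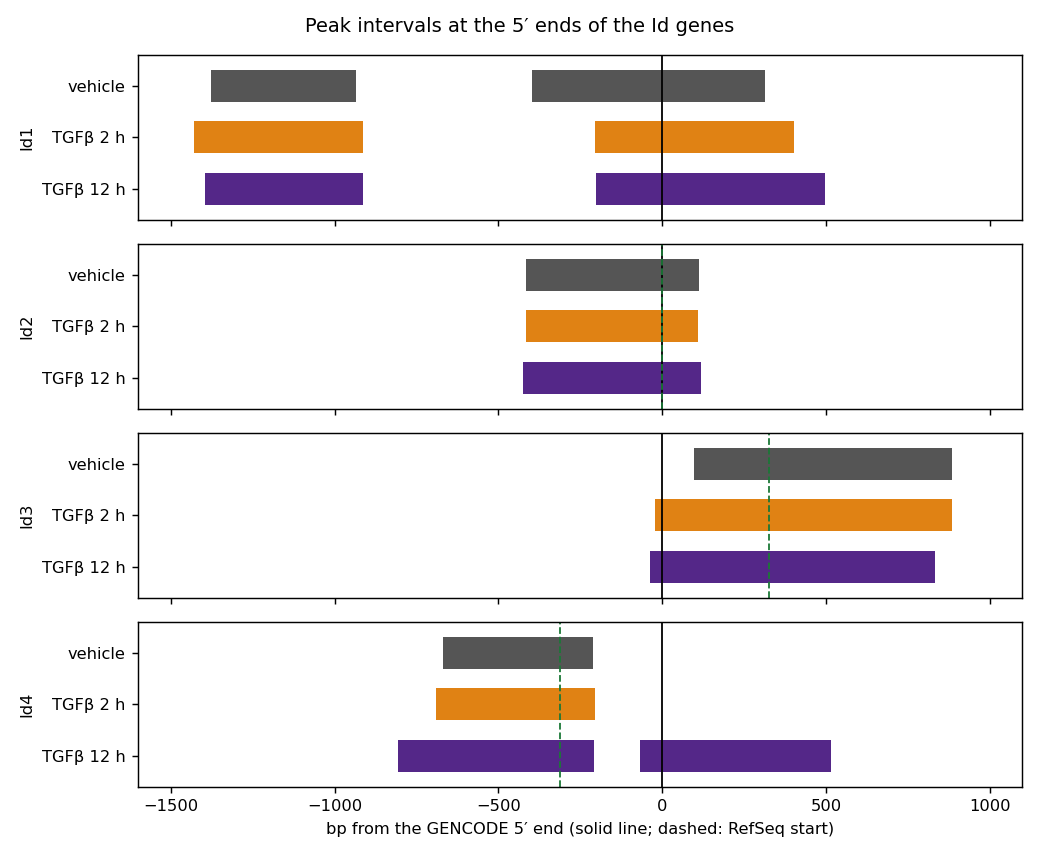
Peaks at the 5′ ends of the 4 Id genes, with bp from the GENCODE 5′ end on the x axis (solid line) and the 3 lists as bars, and with the RefSeq start as a dashed line for Id2, Id3 and Id4. At Id3 the TGFβ peaks reach over the GENCODE 5′ end, and at Id4 a second peak from -67 to 513 bp is seen at 12 h alone, while the RefSeq starts lie inside a peak in all 3 lists.

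Id2, which also restrains E proteins and can bind the retinoblastoma protein, showed the least change at its 5′ end. The region there was 528 bp wide under vehicle, 526 bp after 2 h and 544 bp after 12 h, with its edges within 9 bp of the vehicle edges in both TGFβ lists. The region with the response element, from -2985 to -2470 bp, was 465, 498 and 516 bp wide. The one region near any Id gene that the vehicle list held and a TGFβ list lacked lay 3555 to 3744 bp downstream of the Id2 5′ end. It was 181 bp wide in vehicle, with a score of 547 where the scores of the vehicle list ran from 540 to 1000, and 190 bp wide at 2 h. It thus lay close to the lower limits of width and score, and it held none of the motifs searched inside its borders:

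Id2, vehicle and 2 h lists, chr12:25777221-25777401: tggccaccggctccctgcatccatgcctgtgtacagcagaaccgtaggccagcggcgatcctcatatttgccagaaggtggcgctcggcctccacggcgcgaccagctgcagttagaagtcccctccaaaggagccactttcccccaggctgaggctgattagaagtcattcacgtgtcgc

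Near Id2, 2 places counted as gained in both TGFβ lists. One, from -59775 to -59237 bp, was 517 bp wide at 2 h and 469 bp at 12 h. At the other, in the neighbouring gene Kidins220, the 2 h peak (83755 to 83973 bp) and the 12 h peak (82716 to 83087 bp) did not overlap and were joined only by the gap rule. The widest region at 12 h was one of 743 bp at -14172 bp, in all 3 lists. Of the 9 regions of the locus, 8 had the 5′ end of Id2 as the nearest protein-coding one.

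Id4, in some cells an antagonist of the other Id proteins, had the change at a 5′ end that was largest among the 4 genes. In vehicle the region ran from -669 to -211 bp (459 bp) and at 2 h from -692 to -206 bp (487 bp). At 12 h it was made of 2 peaks, from -807 to -210 bp and from -67 to 513 bp, and measured 1321 bp in all, the widest region of the locus. The second 12 h peak covered the first part of the gene, where the other lists had none. A noncoding gene on the opposite strand, A330033J07Rik, overlaps this 5′ end, so the peaks cannot be assigned to one of these genes. No other region lay within 10 kb of the Id4 5′ end. The nearest region gained in both TGFβ lists was 53011 bp downstream and narrowed from 558 bp at 2 h to 314 bp at 12 h. A region of all 3 lists at -32983 bp, in an intron of A330033J07Rik, held GGCGCC at 2 places and, between them, the cAMP response element TGACGTCA. It was the one such match in the central 500 bp of the 44 regions, and over whole regions the one at the 5′ end of Id1 was found as well.

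By the GENCODE record, the 5′ ends of Id1 and Id2 lay inside a region in all 3 lists, that of Id3 at 2 h and 12 h, and that of Id4 at 12 h alone. In counts this was 2 of 4 in vehicle, 3 of 4 at 2 h and 4 of 4 at 12 h, against 35.9%, 41.4% and 41.6% of all protein-coding 5′ ends. The pattern of Id3, covered in both TGFβ lists and not in vehicle, was shared by 4.72% of protein-coding 5′ ends, and that of Id4, covered at 12 h alone, by 1.20%. These patterns depended on the annotation. Counted from the GENCODE 5′ end, RefSeq places the start of Id3 at 325 bp, that of Id4 at -311 bp and that of Id2 at the same base. At the RefSeq starts of Id2, Id3 and Id4, all 3 lists held a region.

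The promoters of Id2 and Id4, the 250 bases upstream of the RefSeq start in GRCm38.p6, are shown because each held 1 GGCGCC (capitals), at -231 to -226 bp in Id2 and -148 to -143 bp in Id4, counted from the RefSeq start. They are written in the direction of transcription:

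Id2 promoter: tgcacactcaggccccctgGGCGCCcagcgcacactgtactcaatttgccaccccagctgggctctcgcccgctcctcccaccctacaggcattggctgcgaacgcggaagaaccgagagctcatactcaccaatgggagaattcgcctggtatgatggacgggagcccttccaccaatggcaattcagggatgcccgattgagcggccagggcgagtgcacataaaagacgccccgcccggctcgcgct
Id4 promoter: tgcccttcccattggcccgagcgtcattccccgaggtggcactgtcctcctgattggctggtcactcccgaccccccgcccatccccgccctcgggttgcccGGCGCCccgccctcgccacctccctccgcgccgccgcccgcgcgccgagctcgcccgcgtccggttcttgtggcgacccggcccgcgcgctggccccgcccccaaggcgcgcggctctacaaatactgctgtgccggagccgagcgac

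All 250 bases of both lay inside a region in each of the 3 lists. Of 32851 RefSeq promoters of the same length, 9.59% held GGCGCC. In the Id3 promoter the vehicle region covered 227 of the 250 bases and both TGFβ regions covered all of them, and none of the motifs searched was found there.

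Regions present in vehicle and in a TGFβ list were mostly wider after TGFβ. Of 19 vehicle regions matched one to one at 2 h, 15 were wider (78.9%, 56.7 to 91.5) with a median difference of 57 bp, against 82.7% and 147 bp over all 15960 matched regions. At 12 h, 16 of 18 were wider (88.9%, 67.2 to 96.9) with a median difference of 167.5 bp, against 83.6% and 175 bp over 15163. The shares near the Id genes were close to those of the series at both times. The median at 2 h depended on the settings, with 139 bp when gaps under 2000 bp were joined or when the lists had equal length, 30.5 bp within 50 kb, and -6 bp over the 7 matched regions left when peaks under the median width of each list were dropped. That last setting gave 53.5 bp over 6 regions at 12 h. The largest gain in width at 2 h was 1156 bp, at a region 84239 bp upstream of Id2. The width of this region went from 367 bp in vehicle to 1523 bp at 2 h and back to 719 bp at 12 h. It was made of 1, 2 and 1 peaks, in the same order. At 12 h the largest gain was 1081 bp, in an intron of Bcl2l1, a survival gene downstream of Id1, where widths were 479, 1586 and 1560 bp. That region was made of 1, 2 and 2 peaks, so both gains include a second peak and the gap before it. The region at the 5′ end of Id1 counted as wider at 2 h, while its 2 peaks measured 445 and 711 bp in vehicle and 518 and 605 bp at 2 h. The region over the 5′ end of Bcl2l1 was narrower in both TGFβ lists, with 1510 bp before TGFβ, 1326 bp after 2 h and 1459 bp after 12 h.

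**Figure D4:**
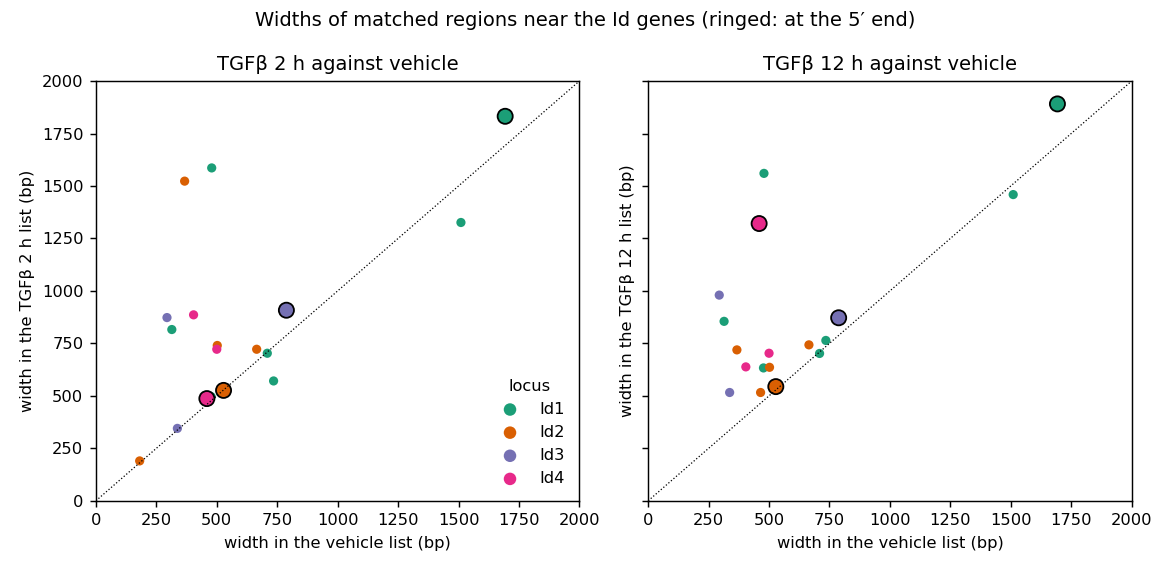
Width in bp of each matched region near an Id gene in the vehicle list (x axis) against its width at 2 h (left) or 12 h (right), coloured by gene, with the regions at the 5′ ends ringed and the line of equal width dotted. Of the points, 15 of 19 at 2 h and 16 of 18 at 12 h lie above the line, with Id4's 5′-end region at 1321 bp at 12 h from 459 bp in vehicle.

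AP-1 sites (TGACTCA, which reads TGAGTCA on the other strand) are bound by JUN and FOS dimers, partners of SMADs in the response to TGFβ. The window searched was the 500 bp about the middle of a region, which reaches past the borders of narrower regions. In this window AP-1 sites were found in 8 of the 13 Id regions gained in both TGFβ lists, against 47.3% of all regions of that pattern. They were found in 4 of the 18 regions of all 3 lists, against 24.4%. Regions of the 2 h list alone held one in 1 of 8, against 32.3%, and those of the 12 h list alone in 0 of 4, against 47.6%. The 8 gained regions with a site were 5 of 8 at Id3, 1 of 2 at Id1, 1 of 2 at Id2 and the 1 at Id4. The nearest such region of each gene is shown, as the middle of the interval common to both TGFβ lists on the plus strand of NCBIM37, with the AP-1 sites in capitals:

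Id1, 46505 bp downstream, chr2:152608499-152608682: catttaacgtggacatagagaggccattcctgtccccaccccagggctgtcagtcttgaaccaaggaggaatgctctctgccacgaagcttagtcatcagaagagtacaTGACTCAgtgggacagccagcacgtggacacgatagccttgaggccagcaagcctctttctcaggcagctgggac
Id2, 59237 bp upstream, chr12:25840289-25840588: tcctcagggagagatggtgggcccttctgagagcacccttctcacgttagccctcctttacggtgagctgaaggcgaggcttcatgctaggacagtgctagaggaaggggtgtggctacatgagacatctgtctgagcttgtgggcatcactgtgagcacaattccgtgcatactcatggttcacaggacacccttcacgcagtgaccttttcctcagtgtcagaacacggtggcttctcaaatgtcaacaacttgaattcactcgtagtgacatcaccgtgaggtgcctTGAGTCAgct
Id3, 19744 bp upstream, chr4:135679407-135679589: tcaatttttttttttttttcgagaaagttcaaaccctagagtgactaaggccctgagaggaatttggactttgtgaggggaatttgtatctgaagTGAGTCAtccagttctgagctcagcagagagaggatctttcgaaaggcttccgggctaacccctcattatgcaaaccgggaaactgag
Id4, 53011 bp downstream, chr13:48409978-48410277: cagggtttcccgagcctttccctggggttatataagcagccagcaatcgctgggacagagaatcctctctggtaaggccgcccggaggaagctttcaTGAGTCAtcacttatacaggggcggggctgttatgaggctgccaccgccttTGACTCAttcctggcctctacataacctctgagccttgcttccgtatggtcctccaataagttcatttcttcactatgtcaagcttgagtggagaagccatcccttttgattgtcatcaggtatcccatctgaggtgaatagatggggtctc

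The Id4 region held 2 AP-1 sites and the others 1 each. None of these 4 regions held GGCGCC, and of the 13 regions gained in both lists only the one 2855 bp upstream of Id3 did. GGCGCC alone stood in 11 of the 44 central windows, against 13.0% of all union regions. It stood in 4 of the 8 Id regions of the 2 h list alone, against 5.67% of that pattern, and in 7 of the 33 regions away from transcript starts, against 3.79%. No gained region near an Id gene held both AP-1 and GGCGCC. AP-1 was in 8 of 13 regions of both TGFβ lists and in 1 of 8 of the 2 h list alone. GGCGCC was in 1 of 13 and 4 of 8, in the same order, and neither was in the 4 regions of the 12 h list alone. Over the whole series, AP-1 also was more frequent in the first pattern (47.3% against 32.3%), while GGCGCC hardly differed (6.27% against 5.67%). These counts are small, and neither the difference between the patterns nor the part of base composition was tested. The SMAD palindrome GTCTAGAC was found in 0 of 44 windows, against 0.822% of all union regions. The E-box CACCTG, the kind of site bound by the E proteins that Id proteins hold off, was found in 16, against 30.5%, and the CTCF consensus in 3, against 4.03%. The 16 include windows whose only E-box lay outside the region's borders, as at the Id2 region missing at 12 h. Over whole regions the E-box was found in 18, against 39.4%. Matches were searched on both strands. A match is a description of the letters, and binding was not measured.

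The 3 protein-coding genes whose 5′-end regions had widths most like those of Id1 across the 3 lists were Stk35, Ddx3x and Ccng2, with sums of absolute log2 width ratios of 0.05, 0.06 and 0.07. Those most like Id2 were Gpaa1, Zfp961 and Pecr, with sums of 0.04, 0.04 and 0.09. In each case 7910 genes with a 5′ end inside a region of all 3 lists were compared.

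Around the Id genes in their pathway, a list of 22 genes was followed, made of E proteins, BMP ligands, antagonists, receptors, SMADs and Atf3, a repressor that acts on Id1 with SMAD3. The 5′ ends of 11 lay inside a region in vehicle, 12 at 2 h and 11 at 12 h, against 35.9%, 41.4% and 41.6% of all protein-coding 5′ ends. None was covered at 12 h and not in vehicle. Of all protein-coding 5′ ends, 4.72% were covered in both TGFβ lists without vehicle and 1.20% at 12 h alone, so few would be awaited among 22. Bmpr1a, a type I BMP receptor, was covered at 2 h alone. All 3 E proteins (Tcf3, Tcf4 and Tcf12) were covered in the 3 lists, as were Smad1, Smad4, Smad5, Smad6, Bmp2, Bmp7, Acvr1 and Atf3. Smad9, Bmp4, Bmp6, Acvrl1, Bmpr1b, Bmpr2, Eng and the 3 antagonists Nog, Grem1 and Chrd were covered in none. Of the 22 genes, 15 had at least 1 region gained in both TGFβ lists within 100 kb. The share of all protein-coding genes with at least 1 is not given here. The median of the 22 was 1, the same as that of all protein-coding genes. The 8 of Id3 stood beside 9 at Eng, the endoglin co-receptor of TGFβ and BMP ligands, and 4 at Smad1, and Id1, Id2 and Id4 had 2, 2 and 1.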

How the data were processed

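ATAC-seq was measured in NMuMG cells in 3 conditions with 2 biological replicates each, grouped by the sample labels. Reads were run by the authors through the ENCODE pipeline for ATAC-seq and aligned to mm9. Peaks were called with MACS2 2.1.2, and those that passed the irreproducible discovery rate over both replicates were kept. They deposited 1 list of positions per condition. In the vehicle list the authors also gave a score, whose scale was not given in the sources used here, while in both TGFβ lists that column only numbers the lines and was not used. Distinct peaks of 150 bp or more were joined over gaps under 1000 bp in each list, and the results over the 3 lists in turn. No peak ran past the end of its chromosome in NCBIM37 (0 of 92735).

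Regions within 100 kb of the GENCODE vM1 5′ end of Id1, Id2, Id3 or Id4 were taken. A region counted as shared at an overlap of 1 bp. Motifs were searched as exact matches on both strands in the 500 bp about the middle of each union region. This window reaches past the borders of regions narrower than 500 bp. The response element was searched in whole regions. Sequences came from NCBIM37 and from RefSeq promoters of GRCm38.p6, which matched NCBIM37 exactly for Id2, Id3 and Id4. Regions were named by a rule: those over a 5′ end or within 10 kb, the nearest gained region with or without a motif, the widest at 12 h, and those of vehicle missing from a TGFβ list. The members and lists were chosen with earlier results of these data known. Shares have 95% Wilson intervals. On simulated data the interval functions differed from a direct count in 0 of 5050 comparisons, and 500 of 500 planted motifs were found. Python 3.11.15 with scipy 1.17.1 and numpy 2.4.6 was used.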

Additional observations from a re-analysis of the deposited data

How the results depend on the processing

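No paired analysis was possible because each condition has 1 list made from both replicates, and for the same reason no replicate could be left out. Of 118 values under other settings, 95 stayed close to the reported ones and 23 moved. Some of the 95 could not move. Presence by 50% of the union region changes only the list patterns, and equal length leaves the vehicle list as it was. The 5′ ends at RefSeq starts and the full response element were added after seeing the data. Lists shortened to equal length gave 20 regions at 2 h, 17 at 12 h and 28 in the union, with 0 in both TGFβ lists without vehicle and 2 at 12 h alone. Keeping peaks of at least the median width of each list gave 7 vehicle regions, 18 at 2 h, 17 at 12 h and 23 in the union, of which 6 were common to the 3 lists, 6 gained in both TGFβ lists and 5 at 2 h alone, and 28.6% (2 of 7) wider at 2 h and 66.7% (4 of 6) at 12 h. Both settings hold fewer peaks by construction and drop the narrowest ones first. A window of 50 kb gave 12 regions in vehicle and 21 at 12 h, of which 11 were common to the 3 lists, 8 gained in both TGFβ lists and 2 at 12 h alone, and a window of 200 kb gave 30 in vehicle and 29 in all 3 lists. With the RefSeq start for Id2, Id3 and Id4 and the GENCODE 5′ end for Id1, 4 of 4 Id genes lay inside a vehicle region, and the full response element was found in 4 regions where GGCGCC was found in 11. Other joining gaps, no width minimum, presence by 50% of the union region, any transcript start and whole-region motif search moved no count by more than 1.5 times, but the median width difference at 2 h, 57 bp as reported, was 139 bp with gaps under 2000 bp joined and also with lists of equal length, 30.5 bp within 50 kb, and -6 bp with the narrower peaks dropped. At 12 h, 167.5 bp as reported, it was 53.5 bp with the narrower peaks dropped.

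With 1 list per condition and no read counts in the lists, absence from a list cannot be told from a signal under the threshold of the peak calls, widths were not corrected for depth, and no difference between conditions has a replicate error. Regions near 1 gene are not independent, and distance does not assign a region to a gene.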
